A study of Mus musculus with 6 samples.

Results

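The 36 genes described here encode proteins of the nucleolus that make and assemble ribosomes. They were taken from a fixed list of symbols, and 36 of 36 were found among the 55414 genes of the deposited count table and passed the filter on low counts, which 23003 genes passed. The study sequenced poly(A) RNA from CD8+ T cells of OT-I mice, whose T cells carry a single transgenic receptor that recognises an ovalbumin peptide. One group received the N4 peptide, the ovalbumin sequence itself, and another received T4, an altered form that the receptor binds more weakly; both were taken at 4 days, and the series' design text names anti-OX40 and anti-41BB antibodies as costimulation beside the peptides. The third group was naive OT-I cells, for which no treatment is given. Each of the 3 groups had 2 libraries. The sample labels give spleen and lymph nodes as the tissue and the design text names only spleens; the sources used here do not give age, sex or sorting, or say whether a group's 2 libraries came from separate mice. The p-values thus set group differences only against the spread between these libraries, and that spread may be technical.

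Ribosome assembly starts in the nucleolus, where RNA polymerase I transcribes the ribosomal RNA precursor. Small nucleolar ribonucleoproteins of the box C/D class guide 2′-O-methylation of this RNA and those of the box H/ACA class guide pseudouridylation, while large sets of assembly factors fold and cut it into the small and the large subunit. T cells that begin to divide after antigen contact are known to enlarge their nucleoli and raise ribosome production, and the transcription factor Myc is a known activator of many of these genes.

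The libraries held 269033066 to 335968843 estimated counts, and the members 196 to 580604 counts per gene and library, and libraries of 1 group differed far beyond counting error (chi-square per degree of freedom 118.4 in T4, 343.4 in N4 and 2207 in naive). CPM values below are counts scaled to a common library size with TMM factors, which ran from 0.641 to 1.36. The 8 CD8 T cell markers summed to 5898.0 to 7528.0 CPM in naive, 4049.0 to 4327.0 in T4 and 4911.4 to 6305.1 in N4 libraries. Cd3d and Trac made up most of these sums. The median log2 fold change of the 8 was -0.66 in N4 against naive and -0.34 in T4 against naive, each with 1 above 0. Markers of other cells differed more between the groups. The sum over 12 macrophage and monocyte markers was 2272.5 to 2674.1 CPM in naive, 257.2 to 270.9 in T4 and 19.0 to 22.4 in N4, where Adgre1 and Spic were at 0. The sum over 8 neutrophil markers was 2414.6 and 24498.2 in the 2 naive libraries, against 4.8 to 10.1 in T4, where Mmp8 was at 0, and 39.7 to 45.3 in N4. Dendritic cell markers summed to 3872.7 to 4115.0, 1168.7 to 1251.2 and 394.6 to 458.9 CPM in the same order, natural killer cell markers to 814.6 to 2233.0, 298.6 to 345.0 and 75.2 to 86.7, and B cell markers to 154.7 to 229.1, 145.8 to 170.3 and 32.2 to 47.9. Red cell markers summed to 3450.9 to 9225.0, 6516.2 to 8125.2 and 359.5 to 422.2, and CD4 and regulatory T cell markers stayed at or below 3.0 CPM. In N4, Pax5, Fcrla, Siglech, Alas2 and Cd4 were also at 0. Most of the dendritic cell sum came from Cst3, H2-Aa, H2-Ab1 and H2-Eb1. Of these 10 dendritic cell markers, 2 had a log2 fold change above 0 in N4 against naive. Among them was Itgax, at 2.78 and 2.65 CPM in naive and 4.04 and 3.72 in N4. The part of these markers in the differences below was not tested, and in bulk RNA fewer cells of a type and less RNA per cell cannot be told apart.

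Few members passed the test in any comparison. In N4 against naive, Nop58 and Npm3 were higher and none of the 36 was lower at an adjusted p under 0.05 (edgeR quasi-likelihood test, Benjamini-Hochberg over all genes tested), that is 2 of 36, while 12.1% of all genes tested were called, 4.87% as higher and 7.18% as lower. Over all genes 1120 were higher and 1652 lower, and scaling by library size gave 695 and 1777. DESeq2 called 4 members, all higher, and 6186 genes. In T4 against naive, no member was called by edgeR, beside 0.117% of all genes, 0.0826% as higher and 0.0348% as lower; 3 of 36 members had an unadjusted p under 0.05, beside 14.5% of all genes, and DESeq2 called 2 members, Nop58 as higher and Npm3 as lower, and 1997 of the 23003 genes. In N4 against T4, edgeR called Npm3 alone as higher and no member as lower, 1 of 36 beside 7.96% of all genes called, 3.48% as higher and 4.47% as lower. There the calls over all genes were 801 higher and 1029 lower, or 320 and 1736 with library size scaling. DESeq2 called 4 members there, Npm3 and Gar1 as higher and Nhp2 and Nop16 as lower, and 5755 genes. The comparisons share libraries, so their values are given side by side and not set against each other.

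The median log2 fold change of the members was 0.17 in N4 against naive, 0.30 in T4 against naive and -0.04 in N4 against T4, and the medians over all genes tested were -0.09, 0.00 and -0.20. Among the 6448 genes whose mean log2 CPM was 3 or more, closer to the members in level, the medians were 0.07, -0.07 and 0.06, with 20.8%, 0.279% and 16.3% called. Library size scaling moved the all-gene medians to -0.65, 0.30 and -1.05; the members' median minus the all-gene median was 0.26, 0.29 and 0.15 with TMM and 0.26, 0.27 and 0.11 with library size. The members ran from -0.70 to 1.59 in N4 against naive and from -1.15 to 1.22 in T4 against naive. In N4 against T4 they ran from -1.31 to 2.53. Their 5th and 95th percentiles were -0.575 and 1.195, -0.532 and 0.931, and -1.113 and 1.062 in the same order. For the 6448 genes closer in level these were -2.302 and 1.794, -1.151 and 0.972, and -1.923 and 1.822. The median standard error of a member's log2 fold change was 0.38.

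**Figure D1:**
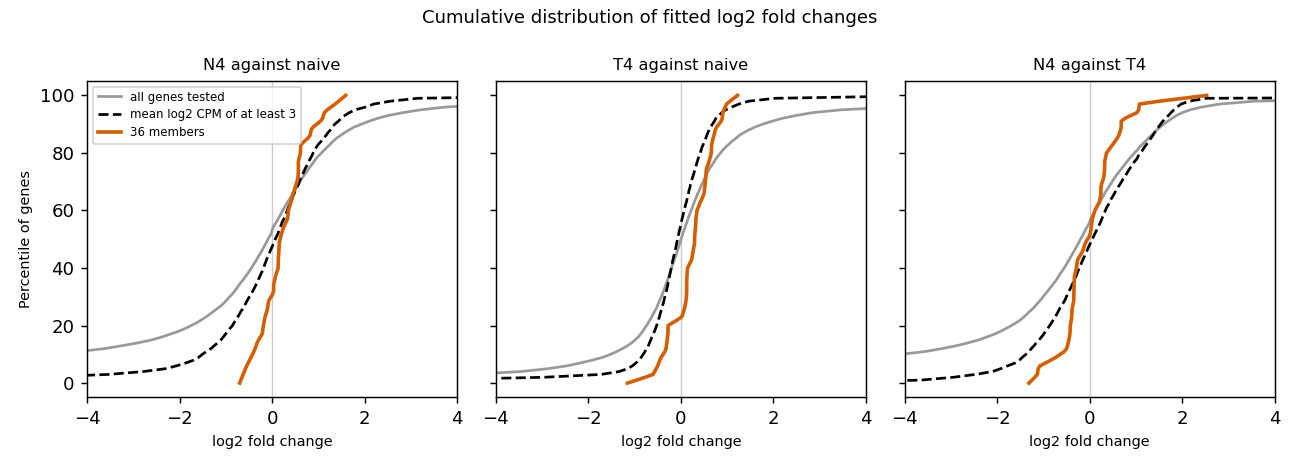
Cumulative distribution of the fitted log2 fold change (x axis) in each comparison, with the percentile of genes on the y axis, for the 36 members (orange), all genes tested (grey) and genes whose mean log2 CPM is 3 or more (dashed). The members' medians are 0.17, 0.30 and -0.04, and their curves are steeper than that of all genes.

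Both libraries of N4 lay above both naive libraries for 11 members and below them for 2, and the groups overlapped for 23; over all genes tested, 26.5% lay above and 28.9% below. T4 lay above naive for 15 members and below for 5, beside 26.2% and 22.6% of all genes. N4 lay above T4 for 10 and below for 6, beside 27.6% and 37.6%. The summed level of the members without Nop10, which alone held 1040 to 2840 CPM, was 1415 and 1496 CPM in naive, 1715 and 1608 in T4, and 2074 and 1829 in N4. This order depends on the scaling: with library size it was 1849 and 1246 in naive, 2332 and 2064 in T4, and 1702 and 1172 in N4.

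Per length of transcript, the members' levels spanned 0.248 CPM per kb for Utp20, a scaffold of the small subunit precursor, to 1600 for Nop10, the smallest core protein of box H/ACA particles (means over 6 libraries). Below Nop10 came Npm1 at 267, Npm3 at 221, Nhp2 at 211, Fbl at 151 and Gar1 at 105 CPM per kb, then a gap down to Mrto4 at 24.6. The members above this gap were thus nucleophosmins and some of the snoRNP core proteins. The core proteins Nop56, Dkc1 and Nop58 lay below it, at 19.5, 10.2 and 4.3 CPM per kb. The 2 RNA polymerase I subunits were near the bottom, Polr1b at 0.861 and Polr1a at 0.403 CPM per kb. Neighbours at the top did not keep their order in every group: Npm3 averaged 425 ± 68.5 (SD, n = 2) in N4 and Npm1 317 ± 11.4, while in T4 Npm3 was at 73.6 ± 3.43 and Npm1 at 268 ± 5.18.

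**Figure D2:**
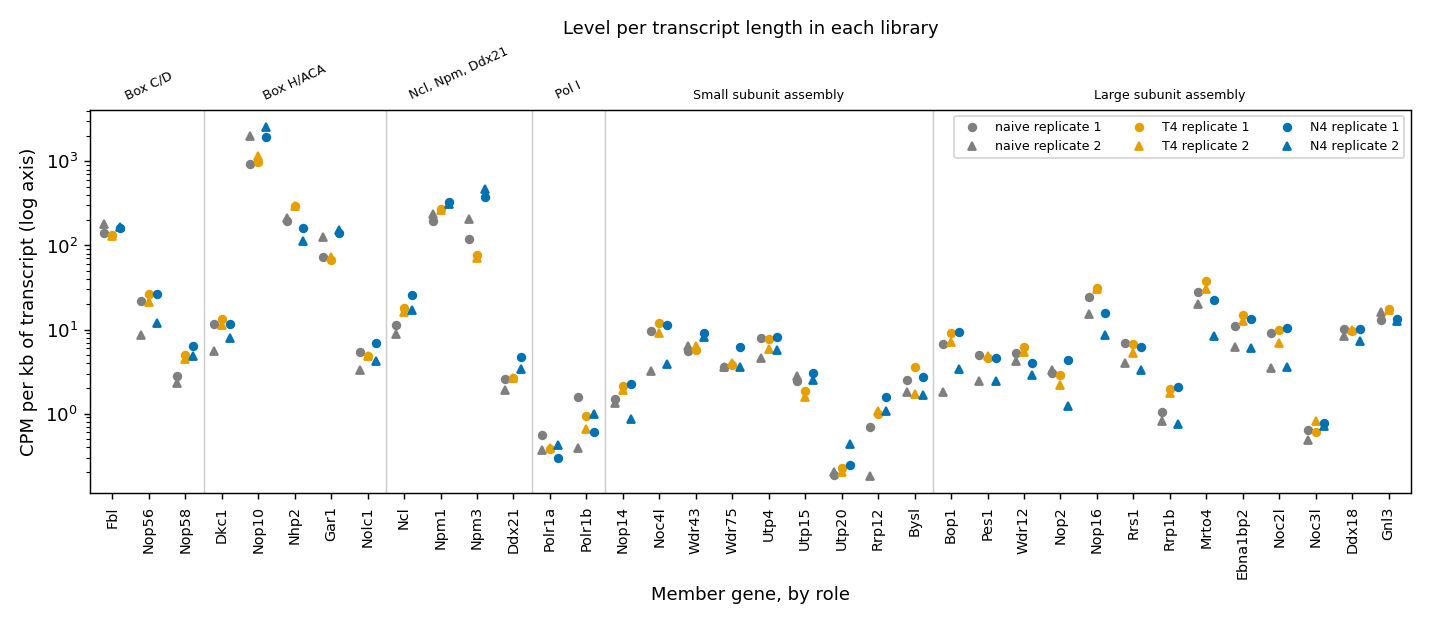
Level of each member in CPM per kb of transcript (log axis) in each of the 6 libraries, with members ordered by role on the x axis, colours for groups and symbols for replicates. Nop10 is highest, near 1600, Utp20, Polr1a and Noc3l are lowest, and Npm3 shows the widest separation between N4 and T4.

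Among the box C/D proteins, Nop58 rose in N4 against naive. Nop58, a core scaffold of these particles, was at 23.4 and 19.6 CPM in naive, 41.7 and 38.0 in T4 and 54.0 and 40.4 in N4. Both stimulated groups lay above naive without overlap, and they overlapped each other. The change was 2.20-fold in N4 against naive (log2 1.14, SE 0.26, edgeR adjusted p 0.043); in T4 against naive the log2 difference was 0.89 (edgeR adjusted p 0.21) and in N4 against T4 0.24 (edgeR adjusted p 0.58), which turned to -0.59 with library size scaling and -0.23 with a GC correction. The call was lost with library size scaling (adjusted p 0.39), GC correction (0.15), no filter (0.052), a fit of only the 2 groups (0.13) and when any 1 of the 6 libraries was left out (0.058 to 0.17, each edgeR).

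Fbl, fibrillarin, the methyltransferase of the same particles, was at 169 and 216 CPM in naive, 163 and 155 in T4 and 194 and 199 in N4. The naive libraries spanned those of N4, T4 lay below both other groups, and the log2 difference was 0.03 in N4 against naive (SE 0.24, edgeR adjusted p 0.95) that was -0.48 with library size scaling. Nop56, the partner scaffold of Nop58, had 42.3 and 16.6 CPM in naive, 51.8 and 41.6 in T4 and 51.0 and 23.4 in N4. Here the libraries of 1 group differed as much as the groups did.

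Box H/ACA proteins did not move together. Nop10 was at 1040 and 2220 CPM in naive, 1100 and 1290 in T4 and 2150 and 2840 in N4, so N4 lay above T4 and the naive libraries spanned most of that range. Its log2 difference was 1.06 in N4 against T4 (SE 0.42, edgeR adjusted p 0.16). Gar1, another core protein, had 91.0 and 159 CPM in naive, 84.9 and 90.8 in T4 and 176 and 194 in N4, and a log2 difference of 1.08 in N4 against T4 (SE 0.32, edgeR adjusted p 0.086). Nhp2, which binds the guide RNA beside them, had the opposite order, with 193 and 210 CPM in naive, 297 and 293 in T4 and 160 and 114 in N4. No 2 of these 3 groups overlapped. The log2 difference of Nhp2 was -1.11 in N4 against T4 (SE 0.26, edgeR adjusted p 0.055). Against naive it was -0.56 in N4 (edgeR adjusted p 0.21) and 0.55 in T4 (adjusted p 0.40). Nhp2 passed the threshold in N4 against T4 with library size scaling, DESeq2, no filter and a fit of only the 2 groups. Dkc1, the pseudouridine synthase, and Nolc1, a chaperone of these particles, overlapped between groups in every comparison.

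The nucleolar phosphoproteins Ncl, Npm1 and Npm3 and the helicase Ddx21 were all 4 higher in both N4 libraries than in both naive libraries, as were 26.5% of all genes, with a median log2 fold change of 0.97 and a range of 0.56 to 1.37. With library size scaling the 4 values were 0.52, 0.05, 0.89 and 0.28 for Ncl, Npm1, Npm3 and Ddx21. Of these, Npm3 passed the test. Npm3, a histone chaperone of the nucleoplasmin family that binds Npm1, was at 107 and 183 CPM in naive, 67.2 and 62.9 in T4 and 333 and 418 in N4. The 3 groups were fully separate, with T4 lowest and N4 highest. Npm3 rose 2.59-fold in N4 against naive (log2 1.37, SE 0.33, edgeR adjusted p 0.048) and was 5.77-fold higher in N4 than in T4 (log2 2.53, SE 0.34, edgeR adjusted p 0.023; log2 1.65 with library size scaling); in T4 against naive the log2 difference was -1.15 (SE 0.33, edgeR adjusted p 0.20).

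The N4 against naive call of Npm3 was lost with RLE scaling (edgeR adjusted p 0.058), a fit of only the 2 groups (0.14) and without any library other than naive replicate 2 (0.056 to 0.19); without naive replicate 2 the adjusted p was 0.012. The N4 against T4 call was lost without either N4 library (0.060 and 0.092) or either T4 library (0.16 and 0.17). A pseudogene by name, Npm3-ps1, had 4.32 and 7.65 CPM in naive, 2.48 and 2.35 in T4 and 13.6 and 14.6 in N4, so reads may be split between both.

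Npm1, nucleophosmin itself, was at 274 and 334 CPM in naive, 384 and 374 in T4 and 460 and 438 in N4. With TMM its libraries were ordered naive, T4, N4 with no overlap. The differences were small, with a log2 value of 0.56 in N4 against naive (SE 0.24, edgeR adjusted p 0.17). In N4 against T4 it was 0.24, which turned to -0.61 with library size scaling and -0.18 with a GC correction. Ncl, nucleolin, an RNA-binding protein of the nucleolus, was at 77.3 and 60.0 CPM in naive, 121 and 110 in T4 and 173 and 116 in N4. Its log2 difference was 1.08 in N4 against naive (SE 0.29, edgeR adjusted p 0.065) and 0.75 in T4 against naive (adjusted p 0.32), and DESeq2 called the first. Ddx21 was at 12.3 and 9.02 CPM in naive, 12.6 and 12.4 in T4 and 22.5 and 16.1 in N4, with 0.85 on the log2 scale in N4 against naive (SE 0.29, edgeR adjusted p 0.11). DESeq2 called Ddx21 too.

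The bases before the transcription starts of the 2 called genes are shown because these are the members that passed the test; they are 100 bases each from RefSeq, GRCm38.p6, read 5′ to 3′ on the strand of the gene, with GC boxes (GGGCGG or, on the other strand, CCGCCC) in capitals. The Nop58 stretch is chr1:59684906-59685005 on the plus strand, and the Npm3 stretch is chr19:45749566-45749665 on the minus strand. These lie before the RefSeq starts. In the GENCODE annotation used for the other values the genes start at 59684971 and 45749591, so part of each stretch lies inside the gene there.
Nop58: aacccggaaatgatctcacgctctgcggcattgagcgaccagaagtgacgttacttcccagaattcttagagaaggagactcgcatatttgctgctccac
Npm3: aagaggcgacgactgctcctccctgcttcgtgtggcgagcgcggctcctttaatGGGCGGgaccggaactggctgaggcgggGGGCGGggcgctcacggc
The Npm3 stretch held 2 GC boxes and was 71.0% G or C, and the Nop58 stretch held 0. Neither held the E-box CACGTG, the sequence that Myc with its partner Max is known to bind.

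Promoter windows from 250 bases before to 50 after the start were found for 31 of the 36 members. The E-box CACGTG, a palindrome that reads the same on both strands, occurred in 5 of them (16.1%) and in 2187 of 27025 windows of all genes (8.09%), which include noncoding genes. A GC box on either strand occurred in 25 of 31 (80.6%) and in 10324 of 27025 (38.2%). The 5 members with an E-box were Nop2, with the E-box before the start, and Pes1, Utp4, Wdr43 and Utp20, with it after the start. Of these, 4 are shown as 30 bases around the E-box (capitals) because they allow the flanks to be compared, at chr6:125131811-125131840, chr11:3963965-3963994, chr8:106893643-106893672 and chr17:71616220-71616249 of GRCm38.p6, each on the plus strand.
Nop2: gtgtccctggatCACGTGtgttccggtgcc
Pes1: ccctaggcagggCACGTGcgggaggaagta
Utp4: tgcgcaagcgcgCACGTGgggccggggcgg
Wdr43: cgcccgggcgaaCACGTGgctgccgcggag
The median log2 fold change of members with and without an E-box was 0.15 and 0.17 in N4 against naive, 0.11 and 0.32 in T4 against naive, and 0.11 and -0.20 in N4 against T4. None of the 5 was called by edgeR in any comparison. A match describes the letters only.

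RNA polymerase I was represented by its 2 largest subunits. Polr1a, the catalytic subunit, was at 4.39 and 2.87 CPM in naive, 2.98 and 3.0 in T4 and 2.32 and 3.27 in N4, and Polr1b at 6.36 and 1.55, 3.71 and 2.61, and 2.39 and 3.97. Groups overlapped for both in every comparison. In N4 against naive the log2 differences were -0.38 (SE 0.38, edgeR adjusted p 0.54) and -0.32 (SE 0.68, edgeR adjusted p 0.80).

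Of the 9 members that assemble the small subunit, none was called by edgeR or DESeq2, and the medians of their log2 fold changes were 0.25, 0.13 and 0.33 in N4 against naive, T4 against naive and N4 against T4. Rrp12, an export and maturation factor of pre-ribosomes, had the largest log2 fold change of all members in N4 against naive. It was at 3.0 and 0.785 CPM in naive, 4.27 and 4.60 in T4 and 6.77 and 4.65 in N4, with both naive libraries below all others. Its log2 difference was 1.59 in N4 against naive (SE 0.64, edgeR adjusted p 0.16), 2.74 (edgeR adjusted p 0.027) without naive replicate 1 and 0.92 (adjusted p 0.17) without naive replicate 2, where it was no longer above Npm3 or Nop58. Wdr43, a subunit of the complex that first binds the 5′ end of the precursor, was at 18.9 and 21.5 CPM in naive, 19.2 and 21.6 in T4 and 30.3 and 27.2 in N4. N4 lay above both other groups, with log2 0.51 against naive (SE 0.23, edgeR adjusted p 0.19), which was -0.01 with library size scaling. Bysl, a late assembly factor, had the smallest difference in this role, 0.03 (SE 0.45, edgeR adjusted p 0.98), from 9.62 and 6.96 CPM in naive, 13.7 and 6.64 in T4 and 10.6 and 6.37 in N4. Its exons overlap those of Ccnd3 on the other strand, which reached 255 CPM, and the kit does not mark strand, so reads of the overlap cannot be assigned. The same holds for 10 members in all, such as Nop56 with Idh3b (up to 57.3 CPM), Nhp2 with Rmnd5b (24.6) and Gnl3 with Pbrm1 (23.3). The other small subunit members, Nop14, Noc4l, Wdr75, Utp4, Utp15 and Utp20, had log2 differences of 0.07 to 0.81 in N4 against naive (edgeR adjusted p 0.25 to 0.89).

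The 13 members that assemble the large subunit had medians of -0.10, 0.35 and -0.38 in the same order. EdgeR called none of them, and DESeq2 called Nop16 as lower in N4 against T4. In T4 against naive 7 of 13 lay above naive in both libraries and 1 below, beside 26.2% and 22.6% of all genes. In N4 against T4 none lay above T4, beside 27.6% of all genes, and 5 lay below (Nop16, Mrto4, Wdr12, Pes1 and Gnl3), a share close to the 37.6% of all genes. Nop16, a factor of early large subunit precursors, had the highest mean CPM of this role and the lowest value in N4 against naive. Nop16 was at 42.4 and 26.9 CPM in naive, 53.6 and 52.3 in T4 and 27.8 and 14.9 in N4. Its log2 difference was -1.31 in N4 against T4 (SE 0.39, edgeR adjusted p 0.085) and -0.70 in N4 against naive (SE 0.38, adjusted p 0.27). Mrto4, which holds the place of the stalk protein during assembly, was at 33.7 and 23.7, 44.9 and 36.3, and 27.0 and 10.1 CPM in naive, T4 and N4, and its difference in N4 against T4 was -1.13 (SE 0.49, edgeR adjusted p 0.19). Reads may be split with its pseudogenes by name, Mrto4-ps1 and Mrto4-ps2. Mrto4-ps1 was at 1.92 and 1.89 CPM in T4 and 2.7 and 3.52 in N4. Mrto4-ps2 was at 0.533 and 0.426 in T4 and 2.08 and 2.24 in N4. Rrp1b had the highest value of this role in N4 against naive, 0.61 (SE 0.50, edgeR adjusted p 0.44), from 4.63 and 3.64 CPM in naive, 8.61 and 7.85 in T4 and 9.30 and 3.35 in N4. Bop1, Pes1 and Wdr12, which form 1 complex, had -0.34, -0.42 and -0.77 in N4 against T4 and 0.57, -0.10 and -0.47 in N4 against naive, none called. The other members of this role, Nop2, Rrs1, Ebna1bp2, Noc2l, Noc3l, Ddx18 and Gnl3, had -0.21 to 0.41 in N4 against naive (edgeR adjusted p 0.48 to 0.92).

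**Figure D3:**
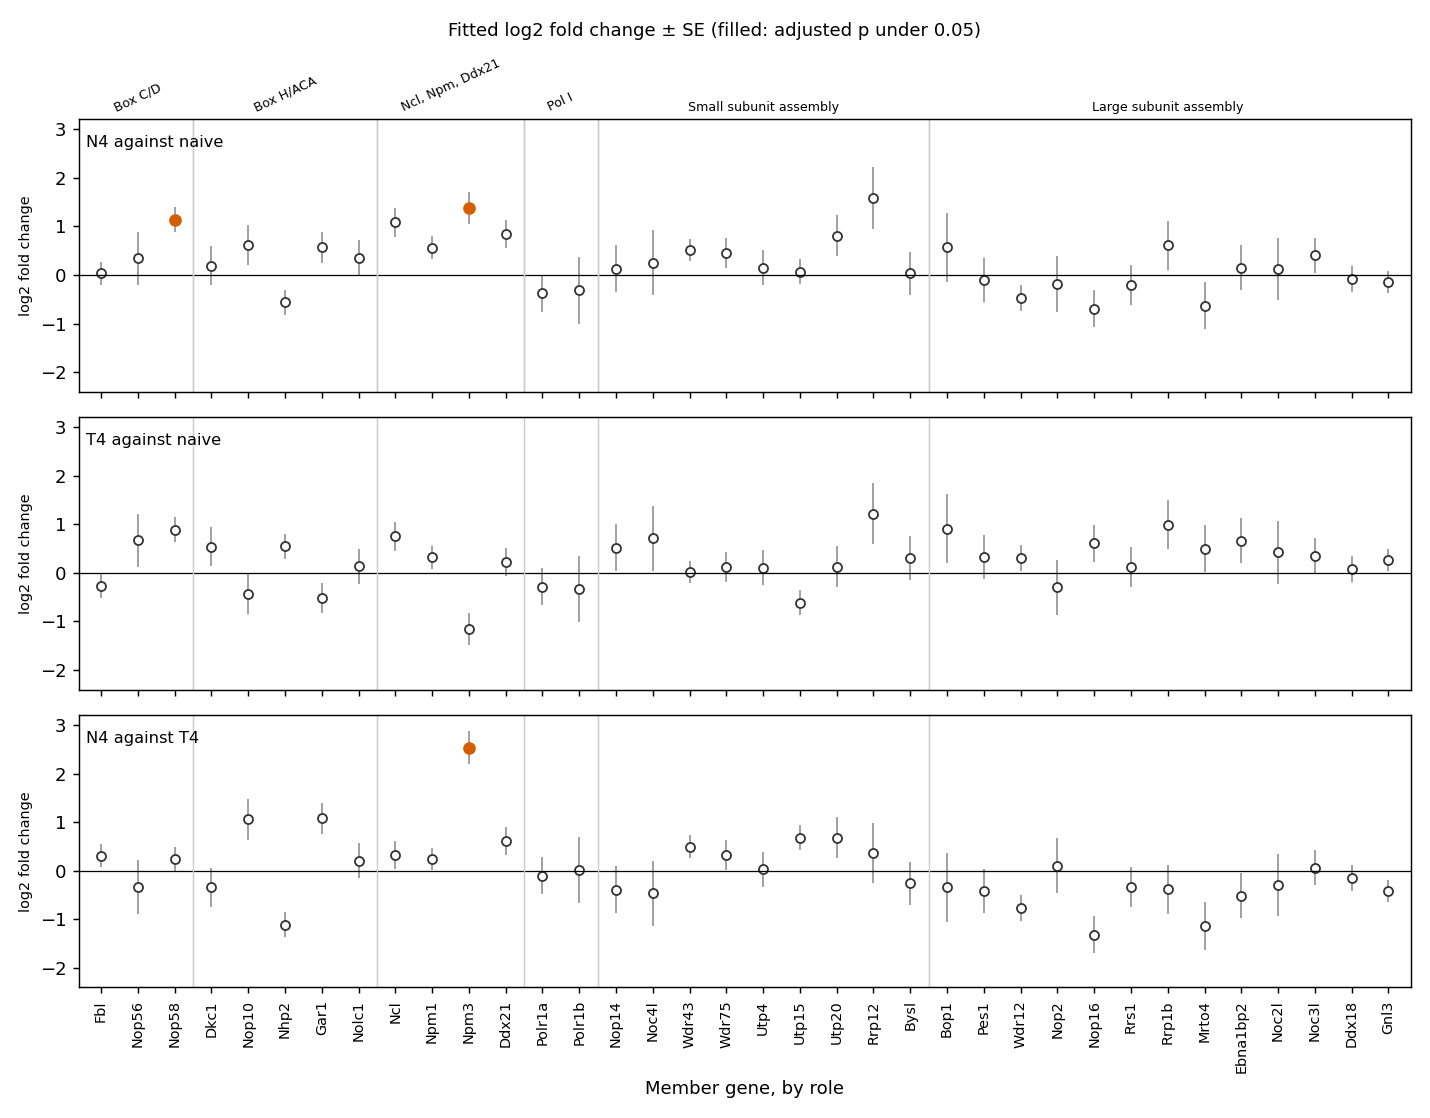
Fitted log2 fold change with its standard error (y axis) for each member (x axis, by role) in the 3 comparisons. Filled points passed an adjusted p of 0.05 and are Nop58 and Npm3 in N4 against naive and Npm3 in N4 against T4; the large subunit members lie mostly below 0 in N4 against T4.

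Within groups, the members differed between the 2 libraries in a shared direction. Replicate 1 was above replicate 2 for 24 of 36 members in naive, 26 in T4 and 29 in N4, while among genes whose mean log2 CPM was 3 or more it was above for 49.6%, 49.2% and 43.2%. The median log2 ratio of replicate 1 to replicate 2 over the members was 0.38 in naive, 0.13 in T4 and 0.54 in N4, and the largest was 2.03 for Polr1b in naive. In N4, Nop2 had 11.1 and 3.16 CPM and Rrp1b 9.30 and 3.35. For 17 members replicate 1 was higher in all 3 groups.

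The transcript table divides each gene's counts among its annotated transcripts, some of which are not protein coding because they retain an intron or are marked for nonsense-mediated decay. For the typical member few counts fell there: the median share over members was 0.858% ± 0.201 in naive, 1.17% ± 0.275 in T4 and 0.965% ± 0.311 in N4 (SD, n = 2 each). With all member counts pooled, the share was 2.87% ± 1.38, 5.4% ± 1.6 and 2.06% ± 0.543 in the same order. Pooled over all protein-coding genes tested it was 6.95% ± 0.776, 8.08% ± 1.16 and 6.36% ± 0.284. A few members, chosen after their values were seen and not tested, had larger shares. In Utp4 the transcript Utp4-203, which retains an intron, took 2.8% and 2.5% of counts in naive, 23.0% and 17.9% in T4 and 10.7% and 14.1% in N4. In Wdr43 the transcript Wdr43-204, marked for nonsense-mediated decay, took 1.1% and 1.3% in naive, 7.5% and 9.0% in T4 and 5.9% and 14.8% in N4. Both were above the naive level in all 4 libraries of stimulated cells. Polr1a went the other way. Its share outside coding transcripts was 45.2% and 32.5% in naive, 22.6% and 5.51% in T4 and 11.3% and 12.3% in N4. The transcripts that made up this share differed within a group. Polr1a-207 took 38.2% and 6.1% in naive and 0 and 12.3% in N4. Polr1a-203 took 5.0% and 24.4% in naive and 11.3% and 0 in N4. The shares of Nop56 and Dkc1 were lower in both N4 libraries than in every naive and T4 library. In Ncl the retained-intron transcript Ncl-202 took 11% and 8.4% in naive, 56.3% and 22.6% in T4 and 18.8% and 15.0% in N4, so the T4 libraries differed widely. In Noc2l, a factor of the large subunit, the coding transcript Noc2l-202 took 31.9% and 47.1% in naive, 37.8% and 41.6% in T4 and 81.6% and 71.0% in N4, with the rest in the coding transcript Noc2l-201. Other shares were not stable within a group: Gnl3-204 took 55.8% in naive replicate 1 and 46.5% in T4 replicate 1 and 0 in the other 4 libraries.

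**Figure D4:**
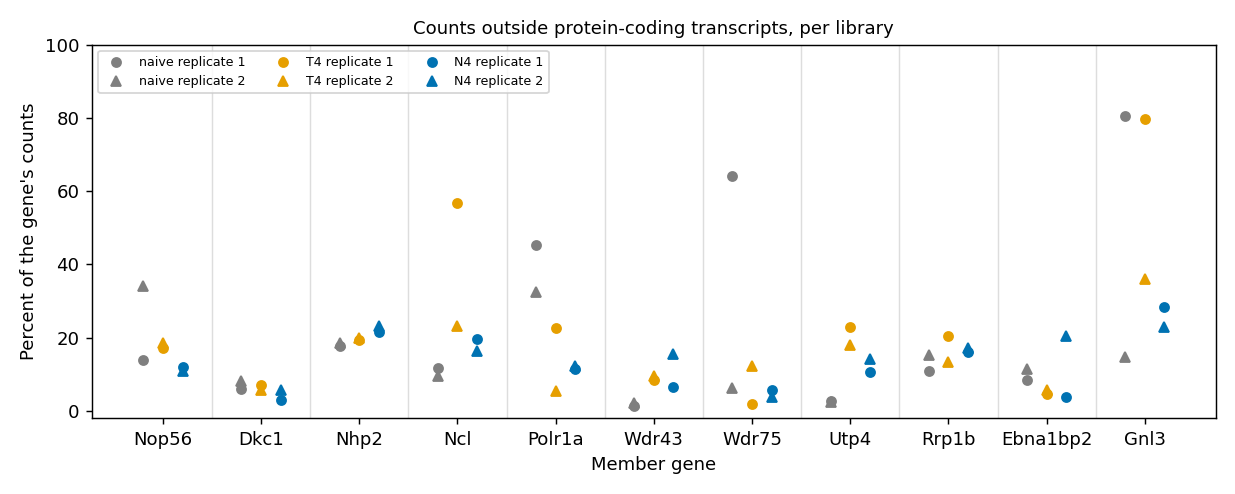
Percent of each gene's counts (y axis) outside protein-coding transcripts in each of the 6 libraries for the 11 members (x axis) whose mean share was at least 5%; colours stand for groups and symbols for replicates. The shares of Utp4 and Wdr43 are lower in naive than in the other groups, and that of Polr1a is higher. Gnl3, Wdr75 and Ncl have single libraries far from their group's other library.

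Several members also carry small nucleolar RNA genes within their bounds, which the list did not use. Some of these overlap annotated exons of the host, such as Snord57 in Nop56. Annotated snoRNA or scaRNA genes lay inside 6 of 36 members (16.7%) on the same strand, 19 in all, and inside 241 of 14601 protein-coding genes tested (1.65%). The hosts were Nop56 with 5, Nop58 with 4, Ncl, Wdr43 and Gnl3 with 3 each and Dkc1 with 1. Of these hosts Nop58 was called. Poly(A) libraries of this kind do not measure the small RNAs themselves.

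Other genes of the pathway were counted on fixed lists. Calls on each list below stand beside the share of all genes called. That share was 12.1% in N4 against naive, 4.87% as higher and 7.18% as lower. In T4 against naive it was 0.117%, and in N4 against T4 7.96%, 3.48% as higher and 4.47% as lower. The all-gene medians were -0.09, 0.00 and -0.20 in the same order. Among 16 matched RNA polymerase I subunits and factors, 2 rose in N4 against naive and none fell. Taf1d, a subunit of the promoter selectivity factor, was at 50.8 and 73.3 CPM in naive, 68.1 and 72.8 in T4 and 142 and 170 in N4 (log2 1.33, edgeR adjusted p 0.034). Polr2k, a small subunit shared by all nuclear RNA polymerases, was at 99.4 and 205 in naive, 110 and 131 in T4 and 413 and 559 in N4; it rose in N4 against naive (log2 1.68, edgeR adjusted p 0.049) and was higher in N4 than in T4 (2.01, adjusted p 0.042), the 1 call of this list there. Their list's median log2 fold changes were 0.33, 0.11 and 0.14 in N4 against naive, T4 against naive and N4 against T4.

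Of 42 other small subunit factors, Utp6 rose in N4 against naive (log2 1.28, edgeR adjusted p 0.047), none fell, and none was called in N4 against T4; the medians were -0.02, 0.26 and -0.14. Of 44 other large subunit factors, Rpf2 and Tex10 rose and Wdr74 fell in N4 against naive, and Rpf2 was higher and Wdr74 lower in N4 than in T4, with medians of 0.00, 0.23 and -0.21. Rpf2, which brings the 5S particle into the precursor, was at 46.8 and 55.6 CPM in naive, 48.8 and 49.1 in T4 and 109 and 127 in N4. Wdr74 was at 44.9 and 35.9, 47.0 and 45.1, and 20.8 and 15.2 in the same order. Of 14 exosome genes, which trim the 3′ ends of ribosomal RNA, C1d and Exosc8 rose in N4 against naive, and in N4 against T4 C1d was higher (log2 1.88, edgeR adjusted p 0.029) and Exosc5, Exosc4 and Exosc6 were lower (-2.0, -1.61 and -1.28, adjusted p 0.039 to 0.045). The exosome medians were 0.30, 0.10 and 0.18.

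Of the 86 cytosolic ribosomal protein genes tested, Rpl39l and Rpl22l1 rose and Rpl3l fell in N4 against naive. In N4 against T4, Rpl39l, Rpl22l1 and Rpl35a were higher and Rpl29 and Rpl14 lower; the medians were 0.18, -0.38 and 0.68. Rpl39l, Rpl22l1 and Rpl3l are paralogs of the standard ribosomal proteins, and many processed copies of this family make its counts uncertain. Of the 8 Myc family genes, Mxd3 rose (log2 2.60, edgeR adjusted p 0.023) and Mxd1 fell (-2.4, adjusted p 0.034) in N4 against naive; both encode partners of Max that oppose Myc, and none of the 8 was called in N4 against T4 (medians -0.50, 0.56 and -0.86). Myc itself was at 37.6 and 11.6 CPM in naive, 33.4 and 31.4 in T4 and 28.5 and 6.54 in N4, with libraries of a group further apart than the groups (edgeR adjusted p 0.72 in N4 against naive). In T4 against naive no gene of these lists was called. Of the 25 calls over all these lists, 0 remained when N4 replicate 1 was left out, 1 without N4 replicate 2, 2 without T4 replicate 1, 1 without T4 replicate 2, 17 without naive replicate 1 and 23 without naive replicate 2.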

How the data were processed

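Gene and transcript estimated counts (expected counts, whole numbers) were used as deposited; the submitters' processing notes name STAR 2.7.1a, SAMtools 1.9, StringTie 2.1.0, R 4.0.5, DESeq2 1.30.1 and mm39, without roles, and the labels' protocols name a low-input poly(A) kit. Such estimates scale with read length, so they are not independent reads. Symbols, transcript types and lengths came from GENCODE M21 (GRCm38) by unversioned identifier, found for 52081 of 55414 genes (94%) and for 36 of 36 members; Polr1f, Polr1g, Polr1h and Utp25 were not matched. All 6 libraries entered 1 edgeR 4.0.16 fit in R 4.3.3 (TMM, filterByExpr, group means, quasi-likelihood test, Benjamini-Hochberg over 23003 genes, threshold 0.05; common biological coefficient of variation 0.67, 3 residual degrees of freedom), tested on simulated data. CPM per kb divides CPM by the count-weighted transcript length. All members are named: those called, and in each role the most abundant and those with the highest and lowest N4 against naive value, are given in every library, with others as further examples chosen after their values were seen; for each other list up to 3 called genes per comparison are named by smallest p, and the remaining ones (at most 5 called) after their values were seen. The members and lists (Pol I, small and large subunit factors, exosome, ribosomal proteins, Myc family, cell markers) were chosen with earlier results of these data known. Not every marker is reported here by name. Alternatives were RLE and library size scaling, DESeq2 1.42.0, no filter, a fit of only the 2 groups, a replicate block, a minimum fold of 1.5, a GC correction and leaving out each library.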

Additional observations from a re-analysis of the deposited data

How the results depend on the processing

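With 2 libraries per group, counts of calls moved widely. In N4 against naive, 2772 genes and 2 members were called; the counts were 6186 and 4 with DESeq2, 4257 and 1 without the filter, 1044 and 0 in a fit of only the 2 groups, and 1791 and 0 when a fold of 1.5 was required. Members called were 1 each with library size scaling, RLE scaling and GC correction. Leaving out 1 library gave 639 to 4487 genes and 0 to 3 members. In T4 against naive, 27 genes and 0 members were called; DESeq2 gave 1997 and 2, and the genes were 956 without the filter, 53 with library size scaling, 15 with GC correction, and 0 with RLE scaling, in the fit of 2 groups and with the required fold. Leaving out 1 library gave 0 to 357 genes and 0 to 1 member. In N4 against T4, 1830 genes and 1 member were called; the counts were 5755 and 4 with DESeq2, 3834 and 3 without the filter and 5281 and 5 in the fit of 2 groups, 769 genes with the required fold and 2 members with library size scaling. Leaving out 1 library gave 0 to 4547 genes and 0 to 5 members; the arm then left with 1 library is assumed to vary like the others, and more genes pass the filter. Npm3 kept its call in N4 against T4 under every setting that used all libraries of both groups.

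The members' median in N4 against naive was 0.17; it was -0.39 with library size scaling, -0.15 without N4 replicate 1 and -0.04 without naive replicate 2, and -0.15 to 0.45 over all libraries left out in turn. In N4 against T4 the median was -0.04; it was -0.94 with library size scaling, 0.19 without N4 replicate 2 and 0.06 without T4 replicate 1, and -0.33 to 0.19 over all. In T4 against naive it was 0.30, 0.57 with library size scaling, and 0.12 to 0.46 over all. The cause was not tested. The median share outside coding transcripts was 2.22% in naive, 3.76% in T4 and 2.63% in N4 once counts were divided by transcript length.

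The replicate numbers are shared across groups, but nothing in the sources used here says that they pair libraries. Deviations of same-numbered libraries correlated at 0.419 for N4 and T4, 0.51 for N4 and naive and 0.325 for T4 and naive over 6012 genes. With a replicate block, 3620, 130 and 3367 genes and 3, 0 and 4 members were called in N4 against naive, T4 against naive and N4 against T4; Ncl was added in the first and Gar1, Nhp2 and Nop16 in the last. Of the 25 calls of other pathway genes, 12 remained with GC correction, 13 in the fit of 2 groups, 16 with library size scaling, 20 with RLE scaling, 22 without the filter and 25 with DESeq2 and with the block.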
